A study of Mus musculus with 2 samples.

Results

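Mir139, Mir149, Mir191 and Mir425 are 4 microRNA genes of the mouse that lie inside other genes, their hosts, on the same strand. They were chosen by symbol from the 2202 microRNA genes of GENCODE M21 counted in the heart, largely because of their level in these libraries, so their levels are described below without a test. All 4 had 10 sense counts or more in each library, the minimum at which a gene is called detected here, which 316 genes reached.

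The samples were hearts of aged female B6CASTF1/J mice, the first-generation hybrid of C57BL/6J and CAST/EiJ, with a labelled age of 18 to 20 months. There was 1 group of 2 microRNA-seq libraries, made from total RNA with a labelled size range under 30 of unstated unit. There was no younger or other control group. The labels number the libraries as biological replicates but give them 1 shared donor record, so the spread between them may be partly technical. In bulk tissue, a change in the number of cells of a type and a change in RNA per cell cannot be told apart.

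A microRNA is cut from a hairpin in a longer transcript, first by Drosha in the nucleus and then by Dicer in the cytoplasm. One of the arms is loaded into an Argonaute protein, and its bases 2 to 8, the seed, select the messenger RNAs it represses. A microRNA in an intron can be made from the same primary transcript as its host, although some have promoters of their own. Pde2a encodes a phosphodiesterase that cGMP stimulates and that degrades cAMP and cGMP, Gpc1 encodes glypican-1, a heparan sulfate proteoglycan of the cell surface, and Dalrd3 encodes a protein that takes part in transfer RNA modification. Of the microRNAs, miR-139-5p is known in human cancer cells to repress IGF1R and ROCK2, miR-191 is widely expressed and has served as a reference in quantitative PCR of human tissues, and miR-425 is known in human to repress NPPA, the gene of atrial natriuretic peptide.

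The mature sequences show the products each hairpin can yield, whose shares are unknown here because reads were counted per hairpin gene and not per arm. RefSeq (GRCm38.p6) held the hairpin and both arms of all 4 genes. Its hairpin positions were those of GENCODE on mm10. In each line the capitals mark the seed.
mmu-miR-139-5p: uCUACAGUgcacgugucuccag
mmu-miR-139-3p: uGGAGACGcggcccuguuggag
mmu-miR-149-5p: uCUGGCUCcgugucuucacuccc
mmu-miR-149-3p: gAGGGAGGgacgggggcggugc
mmu-miR-191-5p: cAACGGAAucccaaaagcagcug
mmu-miR-191-3p: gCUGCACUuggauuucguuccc
mmu-miR-425-5p: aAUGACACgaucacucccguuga
mmu-miR-425-3p: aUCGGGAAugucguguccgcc

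The seeds of the 8 arms all differed, and 6 of them belonged to no other mature mouse microRNA of the table. The seed of miR-149-3p recurred at 4 other loci. One of these, Mir1943, was detected with 41 counts in replicate 1 and 22 in replicate 2, and the other 3 (Gm27740, Gm27775 and Mir7016) had 0 counts in both libraries. The seed of miR-425-5p recurred in miR-489-3p, whose gene Mir489 had 0 counts in both libraries. The longest run shared by 2 of the arms was UCACUCCC, 8 bases that miR-149-5p and miR-425-5p hold outside their seeds. The guanine share was highest in miR-149-3p, at 68.2% of its 22 bases, with 81.8% guanine and cytosine.

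The whole hairpins show how the arms sit around the loop. In each line the capitals mark the annotated arms, the 5p arm first. Positions are on mm10, plus strand.
Mir139, chr7:101475376-101475443: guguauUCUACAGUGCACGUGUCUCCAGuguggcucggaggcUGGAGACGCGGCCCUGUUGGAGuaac
Mir149, chr1:92850378-92850443: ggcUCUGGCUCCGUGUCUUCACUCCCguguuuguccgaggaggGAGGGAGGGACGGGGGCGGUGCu
Mir191, chr9:108568319-108568392: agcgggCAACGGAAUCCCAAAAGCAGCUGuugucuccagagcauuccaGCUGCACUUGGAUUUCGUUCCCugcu
Mir425, chr9:108568777-108568861: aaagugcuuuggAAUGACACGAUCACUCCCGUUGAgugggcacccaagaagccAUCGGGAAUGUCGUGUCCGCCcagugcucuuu

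None of the 4 hairpins shared a stretch of 20 nt with another microRNA locus, which 73 of the 316 detected genes did. Reads that map to several places enter no gene count, so the counts of the 4 genes are not split among copies of this kind. Such reads made up 43.9% of all reads in replicate 1 and 43.2% in replicate 2. Genes with shared stretches can lose counts in this way, so ranks, shares and folds over the median compare counted reads only. How far this bears on the places of the 4 genes was not tested. Because the hybrid carries CAST/EiJ alleles and counting was on mm10, reads that differ from mm10 may be missing, which was not tested. The Mir139 and Mir149 hairpins were short, at 68 and 66 nt, against a median of 83 nt in detected genes, while Mir191 had 74 nt and Mir425 had 85 nt. The Mir149 hairpin held 68.2% guanine and cytosine, a share above that of 95.3% of the detected hairpins (median 51.2%). The share was 58.8% in Mir139, 54.1% in Mir191 and 54.1% in Mir425. The minimum free energies predicted by RNAfold were -35.6 kcal/mol for Mir139, -36.7 for Mir149, -35.0 for Mir191 and -31.7 for Mir425. The 4 values lay between the quartiles of the detected hairpins, -42.9 and -31.0 kcal/mol. In the Mir425 structure 65.9% of the bases were paired, a share lower than the 73.5% of Mir139, the 75.8% of Mir149 and the 75.7% of Mir191, and below the lower quartile of 66.7%.

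Mir139 and Mir149 lie in long introns of protein-coding genes. Mir139 (ENSMUSG00000065446.1) lies in intron 2 of 30 of the Pde2a transcript Pde2a-201, an intron of 29902 nt, with 23907 nt between it and the upstream exon and 5927 nt to the downstream exon. It was intronic in all 10 Pde2a transcripts that span it, and also in Gm45837, a protein-coding gene annotated over the same locus. Mir149 (ENSMUSG00000065470.1) lies in intron 1 of 8 of Gpc1, which is 21249 nt long, 18733 nt after the transcript start and 2903 nt before the downstream exon. No other microRNA gene was annotated in either host or within 10 kb of either hairpin.

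Mir191 (ENSMUSG00000105497.1) and Mir425 (ENSMUSG00000065579.1) lie 384 nt apart, and their host depends on the annotation. In GENCODE M21 both lie within the long noncoding gene 4833445I07Rik (chromosome 9, 108567533 to 108569174). Both hairpins are in the single exon of its transcript 4833445I07Rik-201, and Mir191 is also in an intron of 303 nt of transcript 4833445I07Rik-202. Dalrd3 begins 1493 nt after Mir191 and 1024 nt after Mir425 in GENCODE M21. RefSeq gives Dalrd3 a span of 108567484 to 108572773 on the same build, which holds both hairpins. A further microRNA gene, Gm24083, is annotated on the minus strand across the whole of Mir191, from 108568295 to 108568414.

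**Figure D1:**
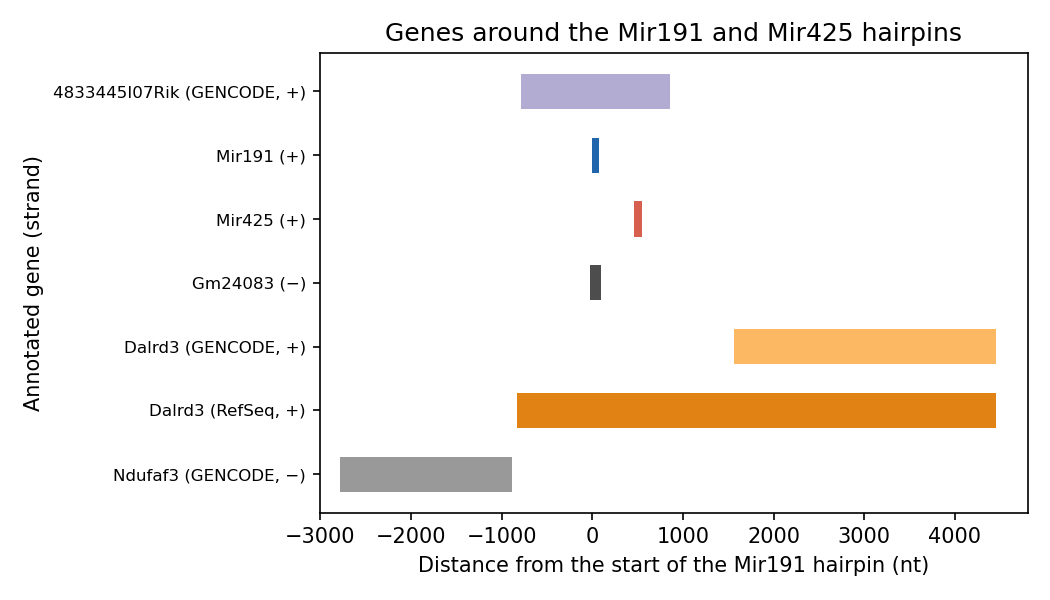
Genes annotated around Mir191 and Mir425, with the distance in nt from the start of the Mir191 hairpin on the horizontal axis. Each gene has 1 bar, except Dalrd3, which has separate bars for GENCODE and RefSeq. Both hairpins lie inside 4833445I07Rik and inside the RefSeq span of Dalrd3, but upstream of the GENCODE span of Dalrd3, and Gm24083 covers Mir191 on the other strand.

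Mir139 had the highest level of the 4 genes, Mir149 and Mir191 stood lower, and Mir425 was far below. Levels are in CPM, the gene's sense count for each 1000000 sense counts over all microRNA genes of that library. Sense gene counts totalled 3383676 in replicate 1 and 3676084 in replicate 2, or 36.1% and 34.8% of all reads. Cardiomyocyte marker microRNAs (Mir208a, Mir208b and Mir499) were all detected, at a summed 5624 and 4831 CPM in replicates 1 and 2, while 5 of 7 neuronal markers were at 0 in both. The intervals given for levels and ratios reflect counting error alone, since they were computed from the counts only. PCR copies were not collapsed by molecular identifiers, so even as intervals of counting error they may be too narrow.

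Mir139 had 117360 counts in replicate 1 and 157480 in replicate 2. This was 34684 CPM in replicate 1 (Wilson 95% interval 34490 to 34880) and 42839 CPM in replicate 2 (42633 to 43047), with a mean of 38762 ± 5766 CPM (SD, n = 2). It ranked at place 9 in each library. The level was 30.4% of that of Mir378a, the gene with the highest mean (Mir126a was above it in replicate 1), and 623 times the median of detected genes, 62.2 CPM. Its neighbours in the order of means were Mirlet7g, at 57792 and 62573 CPM in replicates 1 and 2, and Mir143, at 33589 and 43744 CPM. Mir139 lay below Mirlet7g in both libraries. It was above Mir143 in replicate 1 and below it in replicate 2, so the order of these genes is not resolved.

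Mir149 had 63001 counts in replicate 1 and 46881 in replicate 2. Its level was 18619 CPM in replicate 1 (18476 to 18764) and 12753 CPM in replicate 2 (12639 to 12868), with a mean of 15686 ± 4148 CPM (SD, n = 2). It was the only one of the 4 with the higher CPM in replicate 1, and its SD was 26.4% of its mean, against 14.9% for Mir139, 13.5% for Mir191 and 5.39% for Mir425. It ranked at place 15 in replicate 1 and 17 in replicate 2. Of its neighbours, Mir30d had 17389 and 13999 CPM in replicates 1 and 2, and Mir30a had 13147 and 13549 CPM. Mir149 exceeded Mir30d and Mir30a in replicate 1 and lay below both in replicate 2, so its place among these neighbours is not resolved.

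Mir191 had 35153 counts in replicate 1 and 46253 in replicate 2. Its level was 10389 CPM in replicate 1 (10282 to 10498) and 12582 CPM in replicate 2 (12469 to 12697), with a mean of 11486 ± 1551 CPM (SD, n = 2). Its places were 19 and 18. It lay below Mir30a in both libraries. The next lower mean was that of Mir125a, at 11744 and 6970 CPM in replicates 1 and 2, which was above Mir191 in replicate 1 and below it in replicate 2.

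Mir425, the neighbour of Mir191, had 1873 counts in replicate 1 and 2196 in replicate 2. Its level was 554 CPM in replicate 1 (529 to 579) and 597 CPM in replicate 2 (573 to 623), with a mean of 575 ± 31.0 CPM (SD, n = 2). Its places were 79 and 81, and its mean was 0.451% of that of Mir378a and 9.25 times the median of detected genes. Its level was thus well below those of the other 3. Its neighbours in order were Mir497, at 693 and 487 CPM in replicates 1 and 2, and Mir467d, at 465 and 624 CPM, and each of them lay above Mir425 in 1 library and below it in the other.

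**Figure D2:**
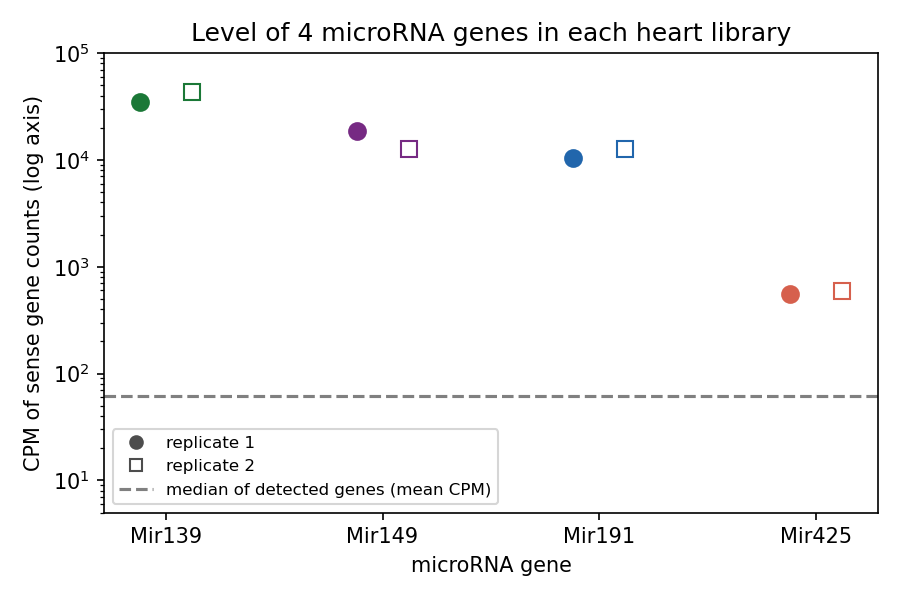
CPM of sense gene counts (log axis) of the 4 genes, with a filled circle for replicate 1, an open square for replicate 2 and Wilson 95% intervals, which are smaller than the symbols. Mir139, Mir149 and Mir191 stand between 10389 and 42839 CPM and Mir425 at 554 and 597 CPM, above the dashed median of detected genes at 62.2 CPM.

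**Figure D3:**
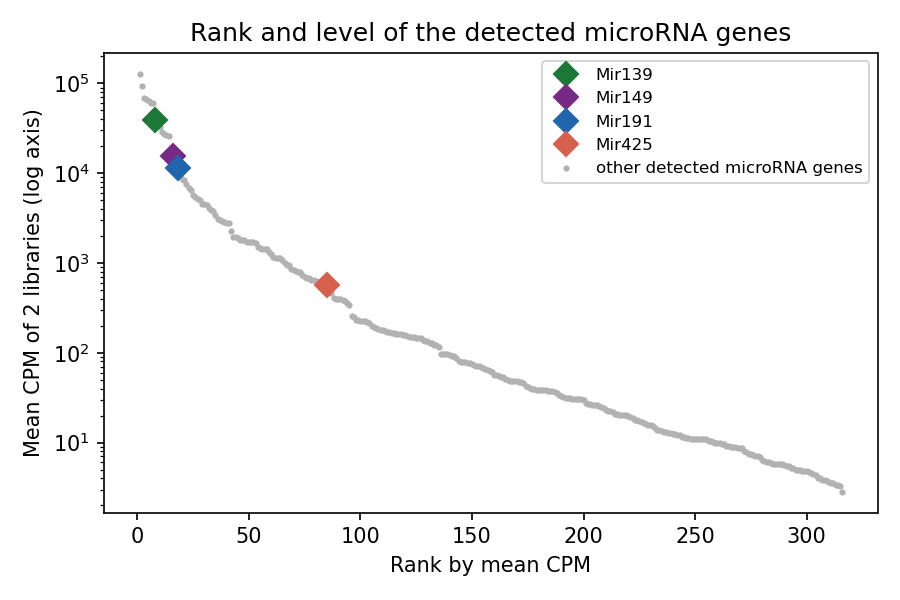
Mean CPM (log axis) of the 316 detected microRNA genes in order of mean, with the 4 genes as coloured diamonds. Mir139 is at rank 8, Mir149 at 16, Mir191 at 18 and Mir425 at 85.

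The 4 genes together held 217387 counts in replicate 1, or 6.42% of sense gene counts (Wilson 95% interval 6.40 to 6.45). The 252810 counts they held in replicate 2 were 6.88% (6.85 to 6.90). The mean was 6.65% ± 0.320 (SD, n = 2). Within the sum, the share of Mir425 stayed nearly the same, while those of Mir139, Mir149 and Mir191 shifted. Mir139 made up 54.0% of it in replicate 1 and 62.3% in replicate 2, Mir149 made up 29.0% and 18.5%, Mir191 made up 16.2% and 18.3%, and Mir425 made up 0.862% and 0.869%.

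Among the detected genes, the 2 whose levels over both libraries were most like each member were found by the distance in log2 CPM. For Mir139 they were Mir143 (distance 0.06) and Mir26b (0.60), and for Mir149 Mir30d (0.17) and Mir30a (0.51). For Mir191 they were Mir30a (0.36) and Mir99b (0.61), and for Mir425 Mirlet7c-1 (0.22) and Mir532 (0.23). With 2 libraries this likeness is mainly one of level. Of these genes, GENCODE places Mir26b in an intron of Ctdsp1, Mir532 in an intron of Clcn5 and Mir99b in an intron of Spaca6. Mir30d lies in an exon of the noncoding gene Gm20732, and Mirlet7c-1 in an intron of the noncoding gene Mir99ahg. Mir143 and Mir30a have no same-strand host there.

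Ratios between members within a library do not depend on the scaling between libraries, and 6 pairs were compared. Mir139 kept nearly the same ratio to Mir191, and the pairs with Mir149 changed most. The ratio of Mir139 to Mir191 was 3.34 (exact 95% interval 3.30 to 3.38) in replicate 1, and in replicate 2 it was 3.40 (3.37 to 3.44). The ratio of these ratios, replicate 1 over replicate 2, was 0.981 (two-sided Fisher exact test on the counts, p = 0.0149 adjusted by Benjamini-Hochberg over 6 pairs).

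Mir139 was 1.86 times Mir149 in replicate 1 (1.84 to 1.88) and 3.36 times in replicate 2 (3.32 to 3.39). Mir149 was 1.79 times Mir191 in replicate 1 (1.77 to 1.82) but 1.01 times in replicate 2 (1.00 to 1.03). Mir149 and Mir191 were thus clearly apart in replicate 1 and nearly level in replicate 2. For both pairs the Fisher exact test gave an adjusted p below 1e-300, the smallest value given here. Mir149 was 33.6 times Mir425 in replicate 1 (32.1 to 35.2) and 21.3 times in replicate 2 (20.5 to 22.3; Fisher exact test, adjusted p = 1.62e-45).

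Mir191 exceeded its neighbour Mir425 by 18.8 times in replicate 1 (17.9 to 19.7) and by 21.1 times in replicate 2 (20.2 to 22.0). The mean ratio was 19.9 ± 1.62 (SD, n = 2), so the 2 hairpins of 1 locus differed about as much in each library, although the change of the ratio passed the Fisher exact test (adjusted p = 0.000434). Mir139 was 62.7 times Mir425 in replicate 1 (59.9 to 65.6) and 71.7 times in replicate 2 (68.8 to 74.8; Fisher exact test, adjusted p = 3.25e-05). These tests compare 2 libraries against counting noise and not conditions.

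**Figure D4:**
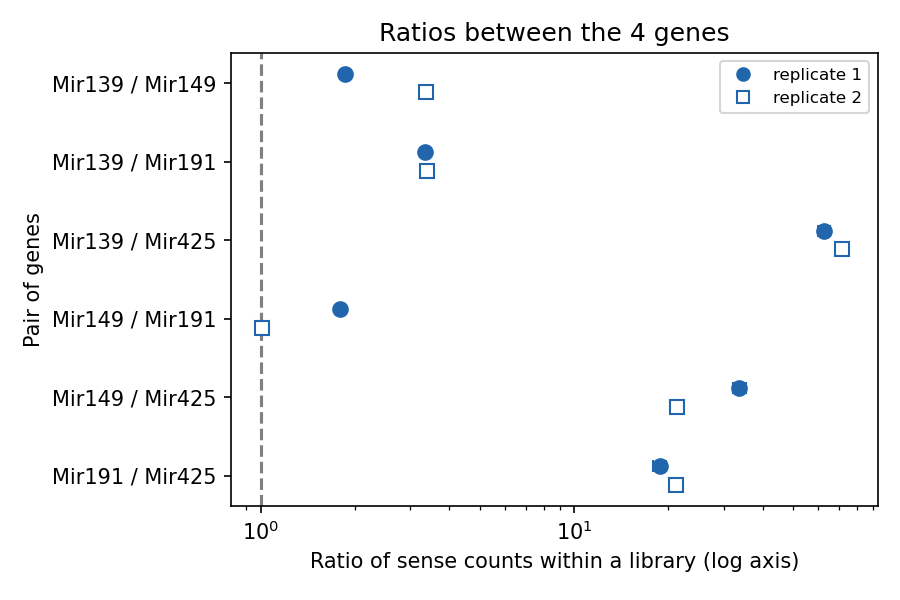
Ratio of sense counts within a library (log axis) for the 6 pairs of the 4 genes, with filled circles for replicate 1, open squares for replicate 2 and exact 95% intervals. The 3.34 and 3.40 of Mir139 over Mir191 lie close together, while Mir139 over Mir149 parts into 1.86 and 3.36.

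Set against all detected genes, Mir149 was higher in replicate 1, Mir139 and Mir191 were slightly higher in replicate 2, and Mir425 had a log2 ratio near 0. Counts were scaled between libraries by TMM, which balances the bulk of the genes, and each gene was tested with a two-sided exact binomial test adjusted by Benjamini-Hochberg over 316 genes. The test called 3 of the 4 genes, where it called 60.4% of all detected genes and 97% of the 66 genes at 1000 CPM or more. Of the 4, 1 was called higher in replicate 1, as were 27.2% of all detected genes, and 2 were called higher in replicate 2, as were 33.2%. These calls do not set the 4 genes apart.

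The log2 ratio of replicate 1 over replicate 2 was 0.67 for Mir149 (exact 95% interval 0.65 to 0.69; exact binomial test, adjusted p below 1e-300), or 1.59-fold. For Mir139 it was -0.18 (-0.19 to -0.17; exact binomial test, adjusted p = 4.22e-232), so that replicate 2 was 1.13-fold higher. For Mir191 it was -0.15 (-0.17 to -0.13; exact binomial test, adjusted p = 5.58e-50), or 1.11-fold higher in replicate 2. Mir425 had a log2 ratio of 0.01 (-0.08 to 0.10; exact binomial test, adjusted p = 0.831), a value whose sign turns to -0.11 and passes the test when libraries are scaled by their totals (adjusted p = 0.0266).

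The absolute log2 ratio of Mir149 exceeded the median over detected genes, 0.45, and those of Mir139, Mir191 and Mir425 lay below it. A larger absolute log2 ratio was found in 36.4% of the detected genes for Mir149, in 75.0% for Mir139, in 78.5% for Mir191 and in 96.5% for Mir425. Under TMM the median log2 ratio over the detected genes was -0.05, and with library totals it shifted by -0.12. Relative to the median gene, the log2 ratio was 0.72 for Mir149, 0.07 for Mir425, -0.10 for Mir191 and -0.13 for Mir139 under TMM, values that the choice of scaling does not alter, since it shifts every gene by the same amount.

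Marker microRNAs of several other cell types had different summed levels in the same libraries. The endothelial list (Mir126a and Mir126b) summed to 129044 CPM in replicate 1 and 57715 CPM in replicate 2. Nearly all of this was Mir126a, at 129043 and 57714 CPM. The erythroid list of 3 genes summed to 4182 and 1938 CPM. The white blood cell list of 5 genes summed to 8644 CPM in replicate 1 and 16363 CPM in replicate 2, the smooth muscle list (Mir143 and Mir145a) to 35639 and 50822 CPM, and the epithelial and endocrine list of 8 genes to 216 and 857 CPM. Neuronal markers summed to 28.7 and 26.4 CPM, with Mir124a-1, Mir124a-2, Mir124a-3, Mir9-1 and Mir9-2 at 0 in both. Nearly all of this sum was Mir137, at 27.8 and 25.6 CPM. The hepatocyte marker Mir122 was at 23.9 and 17.1 CPM. The part of these cell types in the differences of Mir139, Mir149 and Mir191 was not tested.

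**Figure D5:**
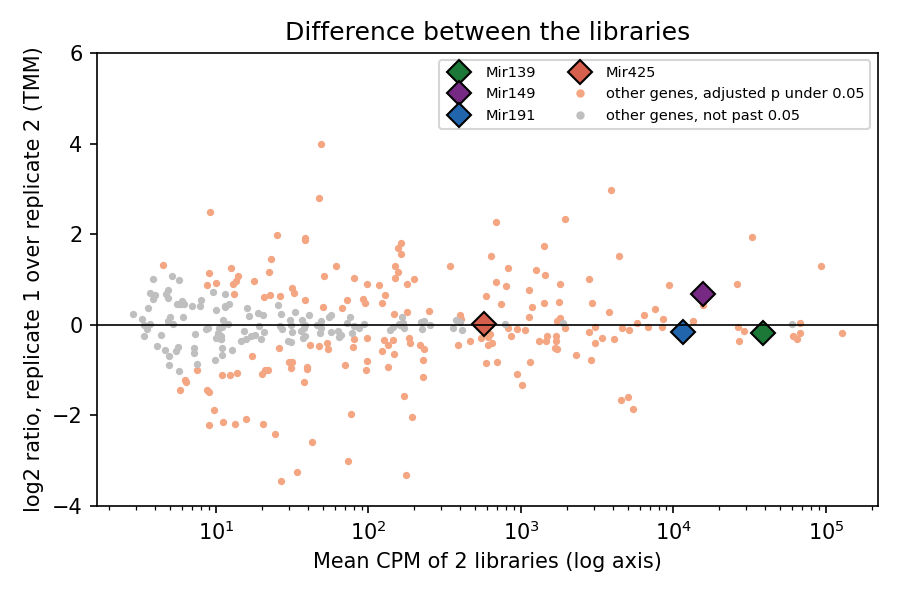
Log2 ratio of replicate 1 over replicate 2 after TMM scaling against mean CPM (log axis) for the 316 detected genes, with the 4 genes as diamonds and genes past an adjusted p of 0.05 in orange. Mir149 lies at 0.67, and Mir139, Mir191 and Mir425 lie between -0.18 and 0.01.

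Mir191 shows how the counting column bears on a microRNA with an annotated gene on the other strand. The files hold a count for reads of both strands together and a count for each strand. Mir139, Mir149 and Mir425 had the same counts on either strand as on the sense strand, and all 4 genes had 0 antisense counts, which allows up to 0.887 CPM in replicate 1 and 0.816 CPM in replicate 2. Mir191 had 35153 and 46253 sense counts in replicates 1 and 2, but 0 in the column for either strand in both.

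The same 35153 and 46253 counts stood in the antisense column of Gm24083, the gene on the other strand, which had 0 sense counts. Reads that overlapped 2 genes were set aside as ambiguous in the column for either strand, 925685 in replicate 1 and 852067 in replicate 2, where the sense column had 0 ambiguous reads. The sense counts of Mir191 equal 3.80% of those ambiguous reads in replicate 1 and 5.43% in replicate 2. Of the 316 detected genes, 23 had a microRNA gene on the opposite strand, and 22 of these 23 were at 0 on either strand in both libraries. The remaining gene was Mir126a, opposite Mir126b, with 436640 and 212163 sense counts in replicates 1 and 2. Not being at 0 in both libraries does not mean that Mir126a kept its sense counts on either strand. No detected gene without such a partner was at 0. Mir191 had the second highest mean of the 22, after Mir378a.

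Among microRNAs within genes, Mir139 and Mir149 were near the top by counted reads, which leave out multimapping reads. Of 969 microRNA genes whose whole hairpin lies in a same-strand protein-coding gene, 156 were detected, and among these Mir139 ranked at place 5 and Mir149 at place 8. Mir191 and Mir425 are outside this class in GENCODE M21. Among the 221 detected genes within a same-strand gene of any kind, Mir139 was at place 7, Mir149 at 13, Mir191 at 14 and Mir425 at 62. The 156 genes had a median of 68.6 CPM, against 62.2 CPM in all detected genes, and 49 were called higher in replicate 1 and 47 in replicate 2, or 61.5% of them, close to the 60.4% of all detected genes (27.2% higher in replicate 1 and 33.2% in replicate 2).

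A list of 46 other microRNAs with well known host genes was set beside the 4. Of the 46, 44 were detected, with a median of 180 CPM, and 22 were called higher in replicate 1, 16 in replicate 2 and 6 not at all. The share called was 86.4%, against 60.4% of all detected genes, whose median level was lower at 62.2 CPM, and 97% of genes at 1000 CPM or more. By direction, 27.2% of all detected genes were called higher in replicate 1 and 33.2% in replicate 2. The median log2 ratio of the 44 was 0.07, against -0.05 for all detected genes. The 6 with the highest means were Mir378a, Mir126a, Mir23b, Mir26b, Mir30e and Mir27b. Mir139 lay between Mir23b (64217 ± 13825 CPM, SD, n = 2) and Mir26b (28864 ± 3735 CPM, in Ctdsp1), in both libraries. Mir149 and Mir191 lay below Mir26b and above Mir30e (8431 ± 733 CPM, in Nfyc) in both libraries, and Mir425 lay below Mir27b (6419 ± 247 CPM).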

How the data were processed

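Raw counts for every microRNA gene were deposited by the authors, in 1 table for each library, with separate columns for both strands together, the sense strand and the antisense strand. The tables carry no headers, so this reading rests on their values. The deposited readme texts name mm10 as assembly and M21 as genome annotation. The sources used here name no aligner or counter. The 4 rows that name no gene (unmapped, multimapping, featureless and ambiguous reads) were left out of library sizes. Of all reads in the sense column, these rows held 14.9%, 43.9%, 5.07% and 0% in replicate 1. In replicate 2 the shares were 16.2%, 43.2%, 5.75% and 0%.

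CPM was computed on sense gene counts. Effective library sizes came from TMM in edgeR 4.0.16 (R 4.3.3), with DESeq2 1.42.0 size factors as an alternative. Exact tests and intervals used scipy 1.17.1 in Python 3.11.15, at an adjusted p of 0.05. With 1 group, no test between conditions was possible. Hosts are same-strand GENCODE M21 genes that contain the whole hairpin. Hairpins were folded with RNAfold 2.7.2. The binomial test was tested on simulated counts with counting noise alone, which the test assumes. Such a simulation cannot cover further spread between libraries.

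Named are the 4 genes, the genes directly above and below each by mean CPM, the 2 nearest in log2 CPM, microRNA genes in the same host or within 10 kb, detected seed relatives, and the 6 highest of the list of known host-gene microRNAs. Undetected seed relatives and genes in cell type lists were named besides. The members and lists were chosen with earlier results of these data known.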

Additional observations from a re-analysis of the deposited data

Results flagged for a closer look

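The antisense column, which no comparison of levels uses, held 35153 counts of Gm24083 in replicate 1 and 46253 in replicate 2, above the 3 counts that a count of 0 allows. They equal the sense counts of Mir191 in each library, and Gm24083 had 0 sense counts.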

How the results depend on the processing

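Of the results above, the library ratios of Mir139, Mir149 and Mir191 kept their direction and call under every scaling, count minimum and thinning tried, at log2 ratios of -0.30 to -0.13 for Mir139, 0.55 to 0.72 for Mir149 and -0.28 to -0.10 for Mir191. Mir425 turned to -0.11 with library totals, by the scaling itself, and to -0.000571 without a count minimum, where it was not called. The genes called numbered 132 to 201, the lowest number with 100 counts or more in each library, where fewer genes are tested. Levels depend on the denominator. Per 1000000 of all reads, Mir139 had 13732, Mir149 5587, Mir191 4070 and Mir425 204, and the 4 genes made up 2.36%. Per 1000000 sense gene counts without the 10 highest genes, they had 111319, 45147, 32988 and 1653, or 19.1% in sum. Mir139, at rank 8 by mean, is among those 10 genes, so this denominator leaves its counts out. Neither the 111319 of Mir139 nor the 19.1% is therefore a share of that total. With reads on either strand, Mir139 had 51753 CPM, Mir149 21115, Mir191 0 and Mir425 770, the sum was 7.36%, the ratio of Mir191 to Mir425 was 0, and no library ratio of Mir191 or ratio with Mir191 as denominator could be computed. MicroRNA genes detected within protein-coding genes numbered 312 at 1 count or more and 90 at 100 counts or more. With either library alone, means and ratios are those given for that library in the results. Depth limits Mir425 most, whose 95% interval for the log2 ratio spans -0.08 to 0.10.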
